A study of Mus musculus with 2 samples.

Results

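Ciliated airway cells were found as 113 single cells among the 5432 saline barcodes that passed the filters, a share of 2.08% (95% Clopper-Pearson interval 1.72 to 2.5). A barcode was taken when it had at least 500 genes and at most 10% mitochondrial transcripts, at least 10 unique molecular identifiers (UMIs, each standing for 1 captured transcript) summed over Foxj1, Ccdc113, Tmem212, Rsph1, Dynlrb2 and Fam183b, and none of Ptprc, Pdgfra or Cdh5, genes of immune cells, fibroblasts and endothelium. They made up 25.7% (interval 21.7 to 30.1) of the 439 epithelial cells of that library. An epithelial cell was ciliated, or another passing barcode without Ptprc, Pdgfra and Cdh5 and with at least 3 UMIs of 8 epithelial genes. These genes were Epcam, Cdh1, Cldn3, Cldn4, Cldn7, Cldn18, Elf3 and Spint1. The other 326 epithelial cells were 282 alveolar type 2-like cells, 19 club-like cells and 25 that met neither definition, and they served as the comparison. The whole series holds 9928 barcodes.

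Ciliated cells line the conducting airways and move mucus by the beat of motile cilia on their upper surface. A motile cilium grows from a basal body and holds a ring of doublet microtubules around a central pair, with dynein motors attached to the doublets as outer and inner arms, and with radial spokes and a nexin-dynein regulatory complex that coordinate the motors. The cell's programme is set by the forkhead factor Foxj1 together with RFX factors, Myb and Trp73, and many of its parts come from genes with little use outside such cells.

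The cells came from lungs of Lepr-Cre;Rosa26-tdtomato mice 8 to 10 weeks old, in which a Cre recombinase under the leptin receptor gene Lepr permanently switches on a red fluorescent protein. Both groups carried both alleles, one group received saline and the other bleomycin, a drug used to injure the lung, and live fluorescent cells were sorted from digested lung for droplet sequencing of transcript 3′ ends. Since the label marks past as well as present Cre activity, a sorted cell need not transcribe Lepr, and how pure the sort was has not been tested. There was 1 library per group, and how many mice it was made from, which dose they received and on which day the lungs were taken are not given in the sources. Cells of 1 library are not replicates, so no test between conditions was possible and every interval below covers counting error only. The saline library held 37570380 UMIs in 5455 barcodes (median 6353) and the bleomycin library 61537182 in 4473 (median 12389). The libraries shared 33 barcode sequences, and 0 of the 113 ciliated cells carried one of them.

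The selecting genes separated the cells with almost nothing between. Of the saline barcodes past the filters, 5027 had no UMI of the 6 genes, 267 had 1 to 3, 2 had 4 to 9, and 136 had 10 or more. The lowest sums inside the threshold were 10, 10, 11, 12, 13 and 14 UMIs, and the nearest outside were 7 and 6. The barcode with 7 held 4 UMIs of the excluding genes. The barcode with 6 held none, and 0.569% of its UMIs came from 12 further ciliated markers that the rule did not use, against a median of 1.25% in the selected cells. The sums of the selected cells ran from 10 to at least 100 with a median of 32 UMIs. These values chose the cells and are given as a description.

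**Figure D1:**
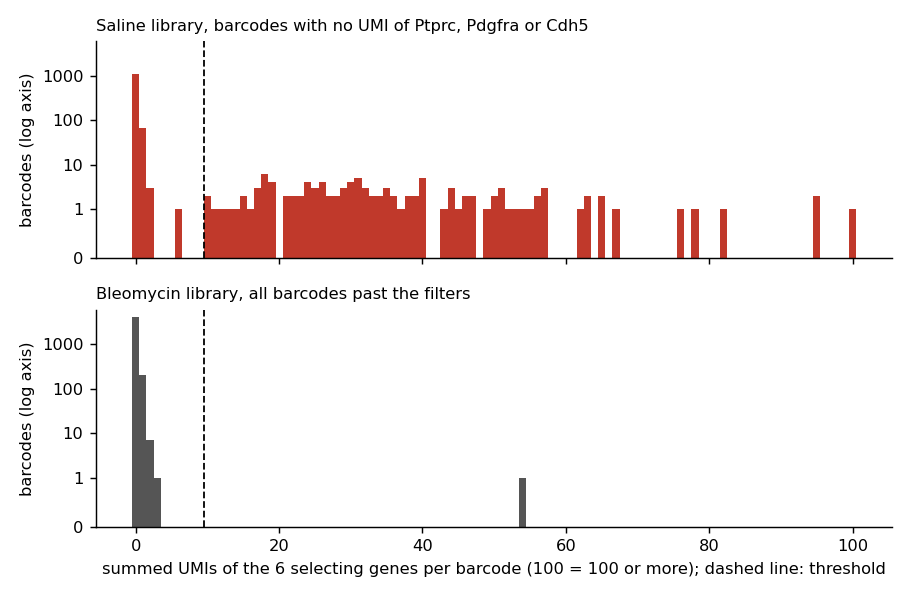
Number of barcodes (vertical, log axis) by the summed UMIs of the 6 selecting genes (horizontal), for saline barcodes without a UMI of Ptprc, Pdgfra or Cdh5 (top) and all bleomycin barcodes past the filters (bottom). The selected saline cells begin at 10 UMIs with 1 lone barcode at 6 below them, and the bleomycin library has 1 barcode past the threshold.

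The excluding genes removed 23 of the 136 barcodes. Pdgfra was found in 18 of them, Ptprc in 5 and Cdh5 in 1, and 14 of the 23 had exactly 1 UMI of these genes. In 9 of the 23, fibroblast markers made up 0.2% or more of the UMIs. When all saline barcodes were clustered by their variable genes, the 113 selected cells fell into 1 of 24 clusters, which held 137 cells. Of the other 24 cells in that cluster, 23 were those removed by the excluding genes. Another cluster held 38 cells with a median of 44.3% of UMIs from club markers. Only 19 cells met the club-like definition, so that class, which also had to lack the excluding genes, left out part of such cells.

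Markers that the rule did not use were also high in the selected cells. They were chosen with earlier results of these data known, so their values describe the cells and are no independent support for the label. All 12 further markers, among them Ccdc153, Tppp3, Sntn, Dnah5, Hydin and Tekt1, had at least 30 UMIs, and together they took from 0.122% to 2.06% of a ciliated cell's UMIs, with a median of 1.25%. In the other epithelial cells the range was 0 to 0.569% with a median of 0.0119%. Epithelial genes that did not choose the ciliated cells were found in them too. Epcam, an adhesion protein of epithelial cells, stood at 265 UMIs per 1000000 of the class (UPM, interval 230 to 303). In the other epithelial cells it stood at 206, but Epcam is 1 of the 8 genes that defined those cells, which can raise its level there. Nkx2-1, the lung's epithelial transcription factor, was in neither rule and stood at 182 (154 to 214) against 188. The 7 basal cell markers, Krt5 and Trp63 among them, were all at 0 UMIs in ciliated cells. Of 7 deuterosomal markers, genes of precursors that are still building basal bodies, none reached 30 UMIs: Cdc20b, Mcidas and Foxn4 were at 0 and the list summed to 38 UMIs over 113 cells. The immune list had Ptprc at 0 by selection and took at most 0.0706% of any ciliated cell's UMIs. In the 25 comparison cells that were neither club-like nor alveolar type 2-like, it took 0.0308% at the median. Its upper quartile there was 2.41% and its highest value 8.14%, beside a median of 1.77% in immune-like cells. Some of the 25 thus reached the level of immune-like cells, and whether they were epithelial was not tested. The fibroblast list took from 0 to 0.715%, and 2 cells were at or above 0.2%. The 11 alveolar type 2 markers were all lower in ciliated cells and took from 0.0198% to 8.01% of a cell's UMIs, with a median of 0.110%, against a median of 29.5% in the other epithelial cells.

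Club cell transcripts were abundant in 7 of the 113 cells. Club cells are the secretory cells of the airway, and Scgb1a1 is their main product. The club list had 8 of its 11 markers at 30 UMIs or more in ciliated cells and none at 0. In 7 cells these markers took 15%, 20%, 42.1%, 42.2%, 44.2%, 45.2% and 58.3% of the UMIs, while in the other 106 the median was 1.15% and the highest value 4.62%. The 7 cells had a median of 24524 UMIs against 5250 in the other 106 and 20678 in club-like cells. Their median sum of the selecting genes was 26 UMIs, against 32.5 in the other 106. Genes of 17 ciliary lists, the selecting genes left out, took 1.58% of their UMIs at the median (0.849% to 6.14%), against 7.17% in the other 106 (3.52% to 11.5%). The 7 cells carried 97.1% of the ciliated cells' Scgb1a1 UMIs and 21.5% of all their UMIs. Scgb1a1 stood at 89960 UPM in all 113 cells against 79296 in the other epithelial cells, a log2 ratio of 0.18 that became -4.59 without the 7. Scgb3a2, a second secretoglobin, went from 0.63 to -5.78, and Cyp2f2, a cytochrome P450 of club cells, from 1.05 to -0.24. Whether these barcodes held 1 cell or more was not tested beyond a doublet score, whose highest 238 values in the library included 5 ciliated cells, 2 of them among the 7. The counts of genes given next were 933 higher and 357 lower with these cells, and 992 and 400 without them.

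**Figure D2:**
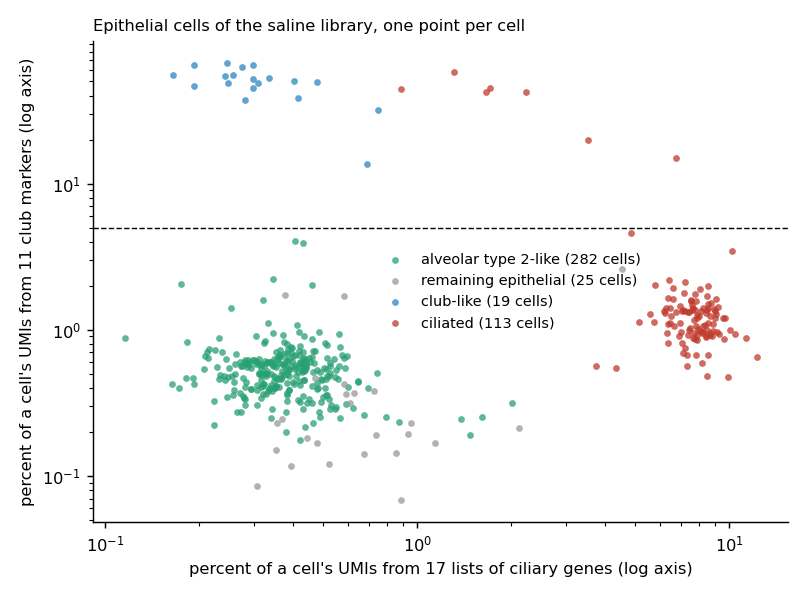
Each point is 1 epithelial cell of the saline library, placed by the percent of its UMIs from 17 lists of ciliary genes with the selecting genes included (horizontal, log axis) and from 11 club markers (vertical, log axis); the dashed line is 5%. Most of the 113 ciliated cells lie near 7.77% and 1.21%, and 7 lie above the line, where the 19 club-like cells lie by definition.

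To describe the programme, UMIs were summed over the 113 ciliated cells (812335) and over the 326 other epithelial cells (2216751), and a gene was called higher or lower when the higher sum was at least 30 UMIs and the UPM differed at least 4-fold. Of 5308 genes with enough UMIs, 933 were higher in ciliated cells (17.6%) and 357 lower (6.73%). Of the 933, 860 were also higher against the 19 club-like cells alone, where 1560 of 4010 genes (38.9%) were higher and 39 (0.973%) lower and the median log2 ratio of all tested genes was 1.58, and 910 against the alveolar type 2-like cells alone, where 976 of 5085 (19.2%) were higher and 306 (6.02%) lower. The number of genes in a ciliated cell was 2332 at the median with 5379 UMIs, against 1716.5 genes with 6208 UMIs in the other epithelial cells. The ratios were not centred on 0: the median log2 ratio of all tested genes was 0.55, and Sftpc alone took 162513 of each 1000000 UMIs of the other epithelial cells. After scaling by the median ratio, which lowers every log2 ratio by 0.72, 677 genes were higher and 572 lower, so that the share of higher among called genes went from 72.3% to 54.2%. Under that scaling these higher genes named here, all in the lists or named by rule, dropped below 4-fold: Ak1, Arl3, Cfap20, Cxcl17, Elf3, Ezr, Fos, Hes1, Hopx, Hsp90aa1, Jag1, Klf2, Klf6, Ocln, Pcm1, Scnn1a, Slc9a3r1, Socs3 and Tubb4b. Higher genes named here by neither route, such as Mt1 and Mt2, were not checked for this. None of the called genes named here changed its direction under it, while genes and lists with a log2 ratio between 0 and 0.72 went below 0.

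Ciliary genes were far more abundant in ciliated cells. The 17 lists of ciliary genes held 309 genes besides the 6 that selected the cells. Of these, 217 had enough UMIs to be called, and 200 were higher in ciliated cells, 0 lower and 17 neither, with a median log2 ratio of 5.20 beside the 0.55 of all tested genes. A gene silent in the other cells could enter this count only through ciliated cells, so the count describes the measured genes and leaves out 92 with too few UMIs. Together the 309 genes took 6.04% of the UMIs of ciliated cells and 0.426% of those of the other epithelial cells. Per cell the share was 7.14% at the median in ciliated cells (0.849% to 11.5%) and 0.379% in the others (0.116% to 4.40%). The counts by list that follow leave the selecting genes out as well and carry the same limit. The lists were also chosen with earlier results of these data known.

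**Figure D3:**
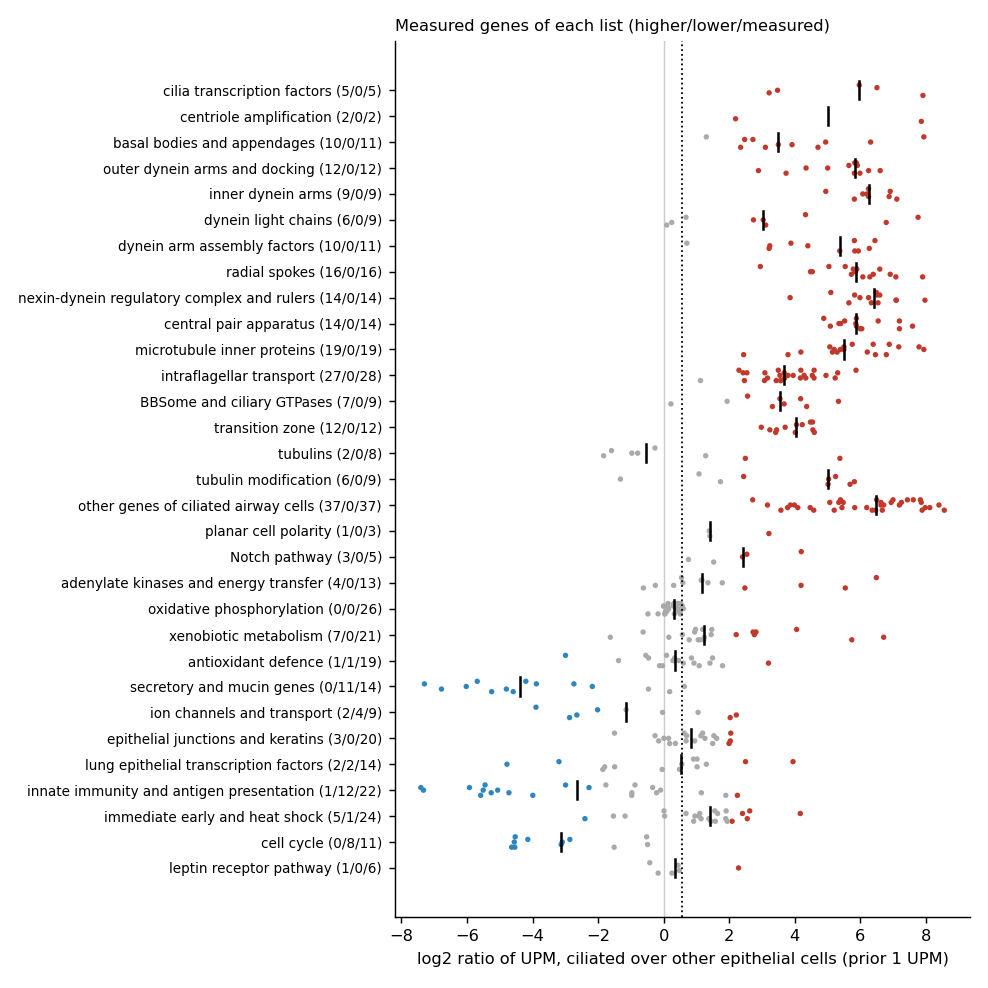
Log2 ratio of UPM in ciliated over other epithelial cells (horizontal) for each measured gene (point) of 31 gene lists (vertical), selecting genes included, with the number higher, lower and measured after each name; red is higher, blue lower, grey neither, the black bar the list's median and the dotted line the median of all tested genes, 0.55. Ciliary lists lie far to the right, oxidative phosphorylation near the dotted line, and secretory, innate immune and cell cycle genes to the left.

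The transcription factors of the ciliary programme came first. Foxj1 (chromosome 11, 116330704 to 116335399, minus strand, GRCm38) had 635 UMIs in ciliated cells and 5 in the other epithelial cells. Per ciliated cell it had 0 to 25 UMIs with a median of 5. After every cell was thinned to 2000 UMIs it was seen in 85.8% of ciliated cells (interval 78.0 to 91.7), against 0.0821% of 2437 fibroblast-like cells, which gives the level of free RNA in the droplets. Being part of the rule, Foxj1 is no result here. Of the 12 other listed factors, 4 had enough UMIs and 4 were higher. Myb, a factor that drives centriole multiplication, had 73 UMIs and Trp73, a p53 relative needed for multiciliation, had 50, each with 0 in the other epithelial cells, which makes them at least 66.4-fold and 45.5-fold higher. Rfx3 (53 against 11 UMIs) was 13.1-fold higher (6.79 to 27.9), and Rfx2 had 34 against 8. Mcidas and Foxn4, which act in the precursors, were at 0, and Gmnc at 1 UMI.

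RFX factors bind the X-box, an imperfect inverted repeat near the start of many ciliary genes, and the 6-base core GTTGCC was therefore counted in RefSeq promoter windows (GRCm38.p6) from 250 bases before to 50 bases after the start. It was searched on both strands, where it reads GTTGCC or GGCAAC. Of 27025 genes with a window, 14.1% held it. It was in 31.9% of the 718 higher genes with a window, in 13.8% of the 268 lower genes and in 14.2% of the 3137 genes that were neither. It was in 47.6% of the 170 higher genes of the ciliary lists, selecting genes included, and in 27.0% of the 548 higher genes outside those lists. By list, 8 of 12 genes of the nexin-dynein regulatory complex and rulers held it, 11 of 19 microtubule inner protein genes, 13 of 29 intraflagellar transport genes, 1 of 11 outer arm genes and 0 of 11 Notch genes. The forkhead core TGTTTAC, the kind of site bound by Foxj1, was in 4.05% of all genes with a window, in 3.30% of the tested genes, in 3.76% of the higher genes and in 3.12% of those that were neither. A match is a run of letters and not a measured binding site.

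The windows of the 3 selecting genes that held the X-box core are shown whole, with the core in capitals, because these genes define the cells; each is written 5′ to 3′ along the gene's strand. In Ccdc113 the core ends right at the start site on the opposite strand, in Dynlrb2 it lies 45 bases before the start, and in Fam183b there are 2 copies, 61 and 10 bases before it.
Ccdc113, chr8:95533850-95534149, plus strand: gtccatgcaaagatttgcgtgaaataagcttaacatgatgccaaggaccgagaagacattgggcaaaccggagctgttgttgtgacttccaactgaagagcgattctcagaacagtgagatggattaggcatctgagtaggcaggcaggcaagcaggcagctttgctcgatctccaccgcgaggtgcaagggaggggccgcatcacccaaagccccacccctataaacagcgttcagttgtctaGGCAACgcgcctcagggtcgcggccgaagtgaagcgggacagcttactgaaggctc
Dynlrb2, chr8:116504765-116505064, plus strand: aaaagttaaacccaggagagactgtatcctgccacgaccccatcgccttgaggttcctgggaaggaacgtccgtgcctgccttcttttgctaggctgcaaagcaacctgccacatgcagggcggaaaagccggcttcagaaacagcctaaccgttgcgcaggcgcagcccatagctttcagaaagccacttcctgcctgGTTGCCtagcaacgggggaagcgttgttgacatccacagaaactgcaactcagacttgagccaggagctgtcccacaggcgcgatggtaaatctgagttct
Fam183b, chr11:58801911-58802210, minus strand: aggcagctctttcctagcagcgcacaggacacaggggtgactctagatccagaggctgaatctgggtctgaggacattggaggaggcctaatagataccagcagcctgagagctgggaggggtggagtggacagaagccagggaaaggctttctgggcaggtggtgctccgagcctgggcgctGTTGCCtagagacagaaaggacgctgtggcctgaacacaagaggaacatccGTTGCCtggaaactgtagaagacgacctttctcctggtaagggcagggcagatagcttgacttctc

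Shorter stretches around the core are shown for 1 higher gene of each of several parts of the cilium, to let the flanking letters be compared. The genes are a transcription factor (Rfx2), a basal body centrin (Cetn2), an outer arm intermediate chain (Dnaic2), an inner arm heavy chain (Dnah7a), a regulatory complex protein (Lrrc23), a central pair protein (Hydin), a transport protein (Traf3ip1), a transition zone protein (Tmem237), a tubulin ligase (Ttll3) and Ccdc153.
Rfx2, chr17:56831099-56831144, minus strand: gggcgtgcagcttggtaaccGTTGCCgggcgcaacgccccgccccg
Cetn2, chrX:72918345-72918372, minus strand: gctgaggctgcgagtacgccGTTGCCtt
Dnaic2, chr11:114727373-114727418, plus strand: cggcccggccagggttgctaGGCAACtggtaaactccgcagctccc
Dnah7a, chr1:53706959-53707004, minus strand: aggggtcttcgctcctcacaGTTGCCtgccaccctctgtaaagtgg
Lrrc23, chr6:124779741-124779786, minus strand: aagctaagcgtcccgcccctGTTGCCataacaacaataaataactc
Hydin, chr8:110266944-110266976, plus strand: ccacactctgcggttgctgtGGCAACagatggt
Traf3ip1, chr1:91494569-91494614, plus strand: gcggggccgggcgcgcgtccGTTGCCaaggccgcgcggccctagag
Tmem237, chr1:59120098-59120143, minus strand: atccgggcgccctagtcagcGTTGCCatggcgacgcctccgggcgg
Ttll3, chr6:113392378-113392423, plus strand: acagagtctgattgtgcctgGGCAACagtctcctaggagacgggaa
Ccdc153, chr9:44240505-44240550, plus strand: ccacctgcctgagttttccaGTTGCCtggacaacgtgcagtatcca

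**Figure D4:**
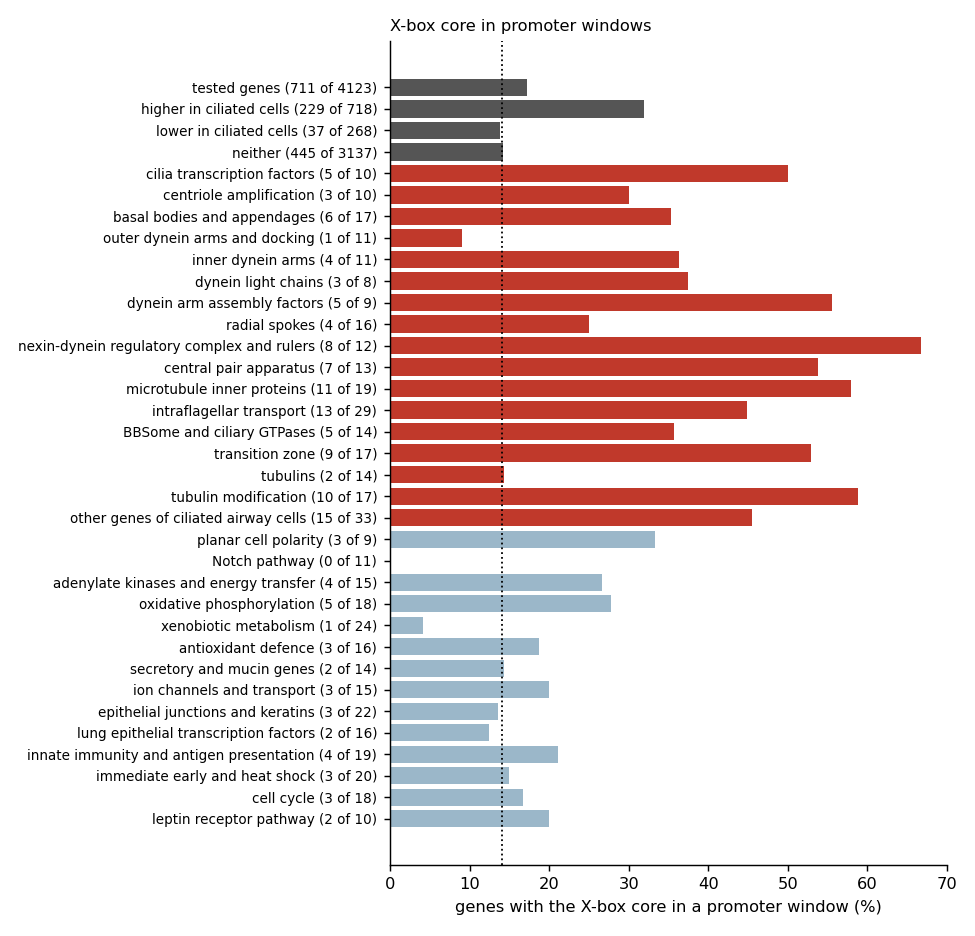
Percent of genes whose promoter window holds the X-box core (horizontal) for genes grouped by their call (grey), by 17 ciliary lists (red) and by 14 other lists (blue); the dotted line is the 14.1% of all genes with a window. Higher genes reach 31.9%, while outer dynein arms (1 of 11) lie below the line and tubulins (2 of 14) at it.

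Few genes of centriole amplification had enough UMIs to be called, though those that did were higher, and most genes of basal bodies had enough. Of 12 genes of centriole amplification, 2 had enough UMIs: Ccdc78, which takes part in deuterosome assembly, with 188 against 0 UMIs (at least 171-fold higher), and Pcm1, a protein of centriolar satellites, with 80 against 46. Ccdc67, the deuterosome scaffold, had 19 UMIs and Ccno 15, Plk4 had 3 and Cdc20b 0. Of 19 genes of basal bodies and their appendages, 11 were measured and 10 higher. Odf3b, an outer dense fibre relative, had 288 UMIs against 1 and was 786-fold higher with a counting interval from 140 to 31148. The centrins Cetn4 (297 against 8) and Cetn2 (360 against 63, 15.6-fold, 11.9 to 20.7) and the distal appendage protein Cep83 (193 against 15) followed. Fbf1, another appendage protein, with 31 against 33 UMIs, was the measured gene that was neither.

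Genes of both sets of dynein arms were higher, with few UMIs in the other epithelial cells. Of 14 outer arm and docking genes 12 were measured and 12 were higher, and of 13 inner arm genes 9 were measured and 9 higher. Among the outer arm heavy chains, Dnah5 had 107 UMIs against 3 (97.3-fold, 32.4 to 479), Dnah9 89 against 1 and Dnah11 37 against 1. The intermediate chains Dnaic1 and Dnaic2 had 48 against 0 and 87 against 2, and the docking proteins Ccdc151 and Armc4 47 and 40 against 0. In the inner arms Dnah12 had 213 UMIs against 2 (291-fold, 79.5 to 2415), Dnali1 224 against 3 and Dnah7a 97 against 0. Counts of Dnah7a, Dnah7b and Dnah7c are uncertain as single genes, because these copies are nearly alike. Among 8 measured dynein light chains 5 were higher. Tctex1d4 (255 against 1) and Dynll1 (2638 against 1076, 6.69-fold, 6.23 to 7.19) were higher, while Dynlrb1, the relative of Dynlrb2 that serves cytoplasmic dynein, had 205 against 524 UMIs, a log2 ratio of 0.09. Dynlrb2 had 1102 UMIs against 25 but is one of the selecting genes. Of 17 assembly factors, which fold the arms in the cytoplasm, 11 were measured and 10 higher, such as Zmynd10 (108 against 3), Lrrc6 (70 against 0) and Dnaaf1 (49 against 0).

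Radial spokes, the regulatory complex, the central pair and the proteins inside the doublets were higher in every measured gene: 15 of 15, 13 of 13, 14 of 14 and 19 of 19, out of 19, 15, 15 and 23 listed besides the selecting genes. In the spokes, Nme5 had 321 UMIs against 9 (97.3-fold, 50.6 to 215), Cfap206 159 against 1 and Rsph4a 97 against 0. In the regulatory complex and the rulers that space it, Drc1 had 143 against 2, Lrrc48 160 against 1, and Ccdc39 and Ccdc40 113 against 1 and 72 against 0. Of the central pair, Spag6l had 156 UMIs against 0 (at least 142-fold), Spag17 and Spef2 118 each against 0, and Hydin 77 against 1. Of the proteins inside the doublets, 1700007K13Rik had 917 UMIs against 8 and every ciliated cell had at least 1 (median 7, highest 24). Cfap126 had 619 against 17 (99.4-fold, 61.6 to 172) and likewise at least 1 in every ciliated cell. Cfap20, with 252 against 125 (5.50-fold), had the smallest ratio of that list.

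Most transport and gating genes, which cells with a non-motile primary cilium also use, were higher too. Of 34 genes of intraflagellar transport, the traffic along the cilium, 28 were measured and 27 higher, with a median log2 ratio of 3.68. The median was 4.03 for the transition zone, 3.50 for basal bodies, 2.89 for dynein light chains, 6.25 for inner arms and 5.88 for the central pair. Traf3ip1 had 293 UMIs against 18 (44.4-fold, 27.6 to 76.0), Ift88 71 against 3, Ift43 322 against 66 and the retrograde motor Dync2h1 74 against 9. Ift20, which also works at the Golgi, had 351 against 439 (2.18-fold) and was neither. Of 14 genes of the BBSome and ciliary GTPases 9 were measured and 7 higher, among them Rabl2 (224 against 13) and Arl3 (274 against 125). Of 19 transition zone genes 12 were measured and 12 higher, with Tmem107 at 539 against 64 (23.0-fold, 17.7 to 30.3) and B9d1 at 216 against 23.

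The alpha tubulin gene Tuba1a and the beta tubulin gene Tubb4b were higher. Of 17 tubulin genes 8 were measured and 2 (25%) were higher, beside 17.6% of all tested genes: Tuba1a with 1662 UMIs against 107 (42.4-fold, 34.8 to 52.0) and Tubb4b with 1296 against 627 (5.64-fold, 5.12 to 6.21). Tuba1b had 646 against 724 (2.43-fold), Tubb5 57 against 560 (log2 ratio -1.83) and Tuba4a 16 against 136 (-1.59), none past the size rule. Tuba1a, Tuba1b and Tuba1c are close copies whose counts can be split between them. Per ciliated cell Tuba1a had 0 to 97 UMIs with a median of 11, and Tubb4b 0 to 162 with a median of 7. Of 21 genes of tubulin modification 9 were measured and 6 higher. Tppp3, a microtubule-binding protein, had 3 to 123 UMIs per ciliated cell with a median of 39, and 4846 against 402 in all (32.9-fold, 29.7 to 36.5). The glutamylase Ttll6 (45 against 0), the glycylase Ttll3 (61 against 3) and the deglutamylase Agbl2 (41 against 0) were higher, while the acetyl transferase Atat1 had 36 against 28 (log2 ratio 1.73).

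**Figure D5:**
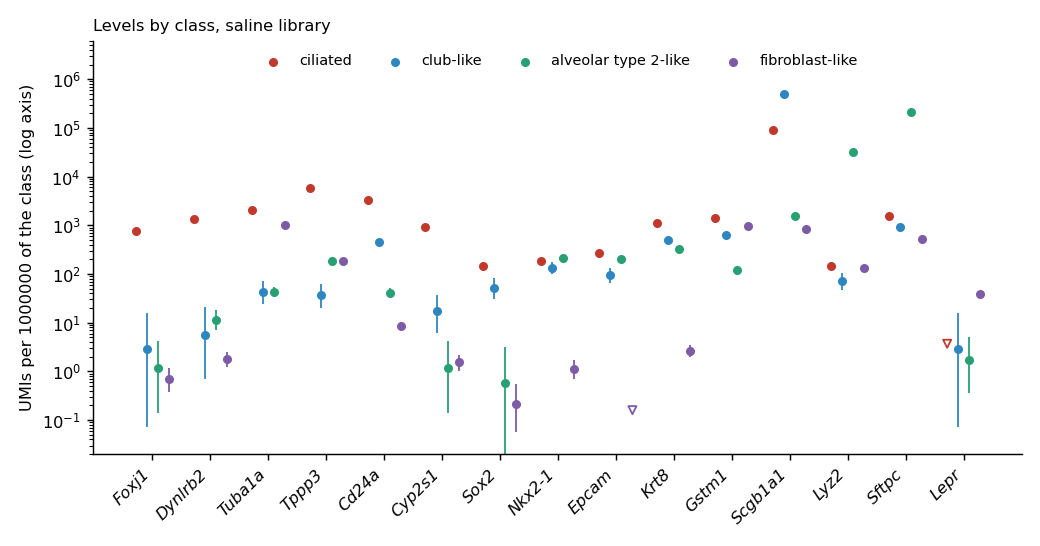
Level in UMIs per 1000000 of the class (vertical, log axis) of 15 genes in ciliated, club-like, alveolar type 2-like and fibroblast-like cells of the saline library, with 95% Poisson intervals; an open triangle is the level of 3 counts for a gene at 0. Foxj1 to Cyp2s1 are highest in ciliated cells, Scgb1a1 in club-like cells, and Lyz2 and Sftpc in alveolar type 2-like cells. Foxj1 and Dynlrb2 chose the ciliated cells, and Scgb1a1, Lyz2 and Sftpc are among the markers that defined the latter classes. For these genes the pattern follows from the definitions, as does the absence of Epcam in fibroblast-like cells.

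Among 37 other genes known from ciliated airway cells, the selecting genes left out, 35 were measured and 35 were higher. Here too a gene nearly silent in the other cells could be measured only through ciliated cells. Ccdc153 had 1633 UMIs against 11 (405-fold, 226 to 813), with 0 to 44 per ciliated cell and a median of 12. Cd24a, a surface glycoprotein used to sort ciliated cells, had 3 to 74 UMIs per cell with a median of 21, and 2646 against 324 in all (22.3-fold, 19.9 to 25.1). It was in 100% of ciliated cells after thinning (interval 96.8 to 100), against 1.56% of fibroblast-like cells. Elof1, a transcription elongation factor, had 1673 against 134 (34.1-fold, 28.6 to 40.9), with at least 1 UMI in every ciliated cell. Cdhr3, a cadherin that rhinovirus C uses as its receptor in people, had 225 against 2 (307-fold, 84.0 to 2551). Outside the lists, the highest ratios included Stmnd1 (310 against 2), Meig1, a gene first known from male meiosis (408 against 5), Smim5 (365 against 4), Pcp4l1 (332 against 5), Syt5 (203 against 2) and Lhb, the luteinising hormone beta chain (135 against 1, 368-fold with an interval from 65.0 to 14657). Lhb was in 62.8% of the ciliated cells with at most 8 UMIs in any.

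Metabolic genes differed from list to list. Over all tested genes, 17.6% were higher and 6.73% lower. Of 26 oxidative phosphorylation genes 26 were measured and 0 were higher or lower, with a median log2 ratio of 0.31, below the 0.55 of all tested genes and below 0 after the median-ratio scaling. Cox4i1 stood at 1151 UPM against 850 and Cox6c at 1185 against 800. Of 17 genes of adenylate kinases and energy transfer 13 were measured and 4 higher: Ak7 (105 against 1) and Ak9 (37 against 0), kinases of the axoneme, with Ak1 (116 against 55) and the creatine kinase Ckb (208 against 29, 19.6-fold). Gapdh had a log2 ratio of 0.54. Of 29 genes of xenobiotic metabolism 21 were measured and 7 higher. Cyp2s1, a cytochrome P450, had 737 UMIs against 17 (118-fold, 73.4 to 204) and the aldehyde dehydrogenase Aldh3b1 434 against 20 (59.2-fold, 37.9 to 97.9). Gstm1, a glutathione transferase, had 1176 against 483 (6.64-fold, 5.97 to 7.4), a call that was lost against club-like cells alone, where Gstm1 stood at 637 UPM against 1448 in ciliated cells. Of the xenobiotic list, 4 of 20 genes measured against club-like cells were higher, beside 38.9% of all genes there. The list's median log2 ratio there was 0.05, beside 1.58 for all tested genes. Its summed level was 14641 UPM in ciliated and 15052 in club-like cells. Of 20 antioxidant genes 19 were measured, with Gclm, a subunit of the enzyme that begins glutathione synthesis, higher (178 against 51, 9.52-fold) and Glrx, a glutaredoxin, lower (11 against 255).

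Many secretory, surfactant and antigen-presentation genes were lower. Over all tested genes, 6.73% were lower and 17.6% higher. Of 20 secretory and mucin genes 14 were measured, 0 were higher and 11 lower, among them Scgb3a1 (54 against 4163 UMIs), Muc5b (0 against 112), Bpifb1 (1 against 541) and Lcn2 (13 against 906). Of 27 genes of innate immunity and antigen presentation 22 were measured, 12 lower and 1 higher. The class II genes Cd74 (77 against 10179), H2-Aa (20 against 2177) and H2-Eb1 (5 against 961, 70.4-fold lower, 30.1 to 217) were lower, as were Il33, an alarmin (2 against 333), and the chemokine Cxcl15 (158 against 11426). Lyz2 was 171-fold lower (143 to 206), though reads of Lyz1 and Lyz2 are hard to keep apart. The higher gene was Cxcl17, a mucosal chemokine (179 against 101), a call that was lost against club-like cells alone, where it stood at 180 UPM against 220 in ciliated cells. Several of these lower genes are known from alveolar type 2 cells. Against club-like cells alone, the log2 ratios were 1.04 for Lyz2, 0.18 for Lyz1, 0.81 for Sftpc, 0.52 for Etv5 and 0.48 for Fabp5, all below the median of 1.58 in that comparison. Lyz2 and Sftpc were neither there, and Lyz1, Etv5 and Fabp5 had too few UMIs. Surfactant protein C itself, Sftpc, stood at 1592 UPM against 162513 in the other epithelial cells, 102-fold lower (96.7 to 108), with 0 to 690 UMIs per ciliated cell and a median of 4. One cell held 690 of the 1293 UMIs, and without it Sftpc stood at 752 UPM, 216-fold lower (200 to 234). In fibroblast-like or immune-like cells, whichever was lower, it stood at 536 UPM, and 225 of the 357 lower genes were in ciliated cells at no more than 2 times such a floor, a level at which free RNA and transcription cannot be told apart. Of the 933 higher genes, 916 lay at 2 times the floor or above.

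Salt and water transport showed 2 higher and 4 lower genes of 9 measured out of 21, beside 17.6% and 6.73% of all tested genes. Scnn1a, a subunit of the epithelial sodium channel, had 197 UMIs against 114 (4.72-fold, 3.73 to 5.99), and Slc9a3r1, a scaffold of apical transporters, 173 against 114. Against club-like cells alone 5 of the 9 were measured and 0 were higher. The chloride channel Cftr had 1 against 34 UMIs (ratio 0.0803, interval 0.00197 to 0.478), the anion exchanger Slc26a9 2 against 112, the cotransporter Slc12a2 28 against 316 and the water channel Aqp5 68 against 1176. One ciliated cell held 26 of the 68 Aqp5 UMIs, and without it Aqp5 was 9.72-fold lower (7.15 to 13.6). Foxi1, the factor of ionocytes, was at 0.

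Of 23 lung epithelial transcription factors 14 were measured, 2 higher and 2 lower, beside 17.6% and 6.73% of all tested genes. Sox2, the factor of proximal airways, had 119 UMIs against 19 (17.1-fold, 10.5 to 29.4), and 18 of those 19 came from the 19 club-like cells, against which Sox2 was not past 4-fold (146 against 51.4 UPM). Hopx was the other higher factor (41 against 18), and it was not past 4-fold against club-like cells. Etv5 (7 against 584) and Tfcp2l1 (3 against 93) were lower. Foxa1 and Foxa2 had log2 ratios of 1.02 and 1.30. Keratins 8 and 18 had log2 ratios of 1.53 and 1.19 and did not pass the size rule. Of 20 measured junction and keratin genes 3 were higher (15%), below the 17.6% of all tested genes. These were Ocln, Elf3 and Ezr, the last a linker of the apical membrane to actin (634 against 417). Elf3 is also 1 of the 8 genes that defined the other epithelial cells.

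Notch genes, whose signalling steers airway precursors towards secretory fate, were also measured. Of 14, 5 had enough UMIs and 3 were higher, beside 17.6% of all tested genes. These were the ligand Jag1 (124 against 62, 5.46-fold, 3.99 to 7.53) and the targets Hey1 (41 against 4, 28-fold, 10.1 to 108) and Hes1 (1213 against 568, 5.83-fold, 5.27 to 6.45). Hes1 was not past 4-fold against club-like cells (log2 ratio 1.02). The receptors Notch1 (30 against 27) and Notch2 (47 against 75) were neither. Of 13 genes of planar cell polarity, which aligns the beat, 3 were measured and 1 was higher, beside the same 17.6%. This was Fzd6 (44 against 11, 10.9-fold). Celsr1 had 48 against 48 UMIs, a log2 ratio of 1.41.

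Of 20 cell cycle genes 11 were measured, 8 lower and 0 higher, beside 6.73% and 17.6% of all tested genes. Cdk1, Ccnb2, Birc5 and Cdc20 had no UMI in ciliated cells and 50, 37, 49 and 53 in the others, so that they had enough UMIs only through the other epithelial cells, whose sum is the larger. Against club-like cells alone 2 cell cycle genes were measured, with a median log2 ratio of -0.28 and none higher. Mki67 had 5 against 43 UMIs, a log2 ratio of -1.51, and Pcna 24 against 93, -0.49.

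Most genes known to respond to tissue handling did not pass the size rule. The list's median ratio lay above that of all tested genes against the other epithelial cells, but below it against club-like cells alone. Of 24 immediate early and heat shock genes, all measured, 5 were higher (20.8%) and 1 lower, beside 17.6% and 6.73% of all tested genes. The median log2 ratio of the list was 1.41, beside 0.55 for all tested genes. Its summed level was 27657 UPM in ciliated cells and 11770 in the other epithelial cells. Against club-like cells alone 6 of 23 measured genes of the list were higher, beside 38.9% of all genes there. The list's median log2 ratio there was 1.01, beside 1.58 for all tested genes. Fos had 3956 UPM against 930 (4.25-fold, 4.02 to 4.50), Klf6 1438 against 739 UMIs and Klf2 386 against 178. The chaperones Hsp90aa1 (2585 against 1141, 6.18-fold, 5.76 to 6.63) and Hsph1 (343 against 50, 18.7-fold, 13.9 to 25.7) were higher and Hspa1a was lower (65 against 947). Hsp90aa1 and Hsph1 are heat shock genes and also chaperones of newly made proteins, and the part of digestion and sorting in these values was not tested.

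Variation among the 106 cells with under 5% club transcripts was described for the 670 of 28692 genes that averaged 0.5 UMI or more with each cell thinned to 2000 UMIs. Their median Fano factor, the variance over the mean, was 1.10, where pure counting gives 1. Thinning itself draws the factor towards 1, so a low value does not show that a gene varied little. At an equal relative spread the factor is larger for a gene of higher mean, so it does not rank genes of unlike level. It was above 2 for 63 of the 670 genes and for 18 of the 179 higher genes among them. The Fano factor was 1.26 for Ccdc153 (mean 4.69 UMIs), 1.14 for Elof1 (4.89) and 1.10 for Cyp2s1 (2.03). The genes with the highest Fano factors included Sftpc, with up to 134 UMIs in 1 cell and a median of 1, and Malat1, with a mean of 62.7. Mt1 (10.6), Actb, Mt2 (8.99) and Scgb1a1 followed. The metallothioneins Mt1 and Mt2, which bind metals, were higher in ciliated cells and ran up to 86 and 53 UMIs per thinned cell around medians of 12 and 5. Among ciliary genes the Fano factor was highest for Tubb4b (4.25, mean 3.32, median 2, highest 28). Tppp3 (2.59, mean 13.9) and Cfap53 (2.27, mean 0.821, median 0, highest 11) followed. AU040972, with 225 UMIs against 0, was in 47.8% of all ciliated cells and had up to 40 UMIs in 1 of them.

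Lepr, the gene that drives the Cre of this sort, had 0 UMIs in the 113 ciliated cells, a count of 0 that allows a share of up to 2.65% with a UMI, taking 3 counts of 113 cells as the limit. In the other 326 epithelial cells it had 12 UMIs, or 5.41 UPM. In the immune-like or fibroblast-like cells, whichever was lower, it stood at 39.2 UPM, and after thinning 7.92% of fibroblast-like cells had a UMI. Of 10 genes of the leptin receptor pathway 6 were measured and 1 was higher (16.7%), near the 17.6% of all tested genes. This was Socs3, the feedback inhibitor (805 against 449 UMIs, 4.89-fold, 4.35 to 5.50). Socs3 is also induced by other cytokines, and it was not past 4-fold against club-like cells. Stat3 had 93 against 182 UMIs, a log2 ratio of 0.47. Present transcription of Lepr was thus not detectable in these cells at this depth.

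Tmprss2, a serine protease of the epithelial surface, had 0 to 6 UMIs per ciliated cell with a median of 1, and 94 against 33 in all, 7.77-fold higher (5.18 to 11.9).

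The bleomycin library held 1 cell that met the rule, among 4468 barcodes past the filters, a share of 0.0224% (interval 0.000567 to 0.125), and 10 other epithelial cells. That cell had 9014 UMIs and 3284 genes, a sum of 54 UMIs of the selecting genes, and 1.41% of its UMIs from club markers. It had 5 UMIs of Foxj1, 13 of Ccdc153, 31 of Tppp3 and 0 of Lepr. The share of ciliated cells was 2.08% in the saline library. All epithelial cells together were 439 of 5432 and 11 of 4468 barcodes, so the other epithelial cells were also a smaller share after bleomycin. With 1 library per group, treatment, sort and library cannot be told apart, and fewer cells of a type and fewer captured cells of it give the same count. No level was compared between the libraries, since 1 cell gives none.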

How the data were processed

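The authors deposited 1 matrix per library with whole UMI counts for each gene in each barcode, not normalized. Cell Ranger 2.1.1 and mm10 are named in the submitters' processing notes, while annotation release and cell calling are not stated in any source used. Each lists 28692 genes, of which 28339 match GENCODE vM21, used for positions.

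Python 3.11.15 with numpy 2.4.6, scipy 1.17.1 and scanpy 1.11.5 was used. Club-like cells had at least 5% of UMIs from club markers and more than from alveolar type 2 markers, alveolar type 2-like cells at least 10% from alveolar type 2 markers. Fibroblast-like and immune-like cells had at least 2 UMIs of Pdgfra or Ptprc and no epithelial UMI. A gene's free-RNA floor is the lower of its levels in these 2 classes, and transcription there can raise it. Class thresholds were chosen after the data were seen. The cells, gene lists and markers were chosen with earlier results of these data known; after reading the files only aliases (Dnaic1, Dnaic2) were added to the lists.

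Log2 ratios used a prior of 1 UPM. With 1 library per group no p-value was computed. Intervals at 95% are exact Poisson (levels), conditional binomial (ratios) and Clopper-Pearson (shares). A ratio to a class at 0 is a bound against 3 counts there; with 1 to 3 counts its interval is what should be read. Doublets were scored with Scrublet: its own threshold marked 8 barcodes (0.147%), too few to be trusted, so none were removed, and removing the 238 highest scores was an alternative. The rule for calling genes was tried on simulated counts with counting error only. That simulation held no spread between cells, doublets or free RNA, so it cannot show how the calls fare with them.

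Genes named by rule were the selecting genes, the other ciliated markers, the 15 highest and 10 lowest ratios outside the lists, per list the 3 highest levels and 3 largest ratios past the size rule, and fixed genes such as Lepr, Epcam and Sftpc; 1 gene so picked is not reported here. Further list members, the genes with the highest Fano factors, Mt1, Mt2, Malat1 and Actb were named after their values were seen.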

Additional observations from a re-analysis of the deposited data

How the results depend on the processing

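The number of saline cells that met the rule stayed between 91 (at least 20 UMIs of the selecting genes) and 136 (no condition on Ptprc, Pdgfra and Cdh5) over 7 alternatives, and the bleomycin count stayed at 1 over 6. Of 14 alternatives for the comparison, including 2 chosen after seeing the data (without the club-bearing cells and without 2 cells with fibroblast markers), these moved the counts of 933 higher and 357 lower genes by over 1.5 times: against club-like cells only, 1560 and 39; each cell thinned to 2000 UMIs, 386 and 204; at least 100 UMIs, 340 and 170; 2-fold, 1948 and 699; and, for lower genes, the median-ratio scaling, 572. Leaving out, also after seeing the data, the 1 cell that held most Sftpc or Aqp5 kept both calls. Fewer UMIs or cells leave fewer genes to call by construction. Against club-like cells only, the log2 ratios of Etv5 (0.52), Fabp5 (0.48), Lyz1 (0.18), Lyz2 (1.04) and Sftpc (0.81) changed sign, but all lay below the median of 1.58 for all genes tested there, and Lyz2 and Sftpc were neither, the others too low to call; the other class then no longer held alveolar type 2-like cells. Genes with at most 3 UMIs in both classes gave no value. Between 102 and 213 ciliary genes, selecting genes included, were higher over the 14 alternatives, against 206. No paired analysis was possible because each group has 1 library. Depth limits the reading of rare transcripts: 1 UMI is 1.23 UPM in ciliated cells, and 3 counts 3.69 UPM.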
